A study of Homo sapiens with 6 samples.

Results

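The transcripts described are those of 28 genes of cholesterol and fatty acid synthesis, listed by name as members of this biosynthetic pathway. The tumors studied were xenografts of CRL-5889, an established human line of squamous lung carcinoma, taken from nude mice 4 weeks after grafting. The implanted cells had been transfected with the TRA2B-DNAH5 fusion, which joins a splicing regulator gene to an axonemal dynein gene (3 fusion tumors, titled TD), or with the vector (3 vector tumors, titled ctrl). Each tumor gave total RNA for 1 Affymetrix array. The labels call the tumors biological replicates, and do not say which mouse bore each tumor, how strongly the fusion was expressed or whether the transfected cells were 1 clone. The p-values below therefore measure the spread between these tumors, and a difference between the transfected populations cannot be told apart from the fusion. Of the 28 genes, 26 had a probe set (the group of oligonucleotides that reads a transcript) naming that gene alone, out of 18132 such genes on the array. CYP51A1, the sterol demethylase, had only probe sets that name several genes and FDFT1, squalene synthase, is not analysed here. All values are log2 levels of 1 probe set per gene, that with the highest mean over the 6 arrays, and all 26 passed the filter on dim probe sets that left 13694 genes in the test. By their names, 14 of the probe sets used were of plain type, 7 of s type and 5 of x type. Whether the s and x types also read other transcripts was not tested.

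Cells make cholesterol from acetyl-CoA through mevalonate, isoprenoid diphosphates and squalene, and make fatty acids from the same acetyl-CoA through malonyl-CoA. The transcription factors SREBP-2, encoded by SREBF2, and SREBP-1, encoded by SREBF1, switch on both branches, SREBP-2 mainly the sterol genes and SREBP-1 mainly the fatty acid genes. When membrane sterol is plentiful, INSIG1 holds the SREBP escort protein SCAP in the endoplasmic reticulum, and when sterol is scarce SCAP carries the SREBPs to the Golgi, where proteases release their active part. Proliferating tumor cells commonly run both branches to build membranes.

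Promoters of the genes are shown because SREBPs bind a sterol regulatory element there beside NF-Y, a factor that reads CCAAT. RefSeq promoters (GRCh38.p14, 250 bases before to 50 after a start) were at hand for 24 of the 28 genes. The element TCACNCCAC, searched on both strands, was found in 1 of these 24 genes (4.17%, against 1.39% of 27305 genes with a promoter), and CCAAT on either strand in 19 (79.2%, against 39.7%). GGGCGG, the SP1 box, was found in 23 (95.8%, against 48.3%) and the E-box CACGTG in 3 (12.5%, against 8.77%). None of these letter strings contains another. A match is no evidence of binding, and a missing match says only that these letters are not in the window. Below are the promoter of SREBF2, the gene holding the element, and those of HMGCS1, MSMO1 and SCD, which were chosen after their values were seen, HMGCS1 and MSMO1 for their spread among fusion tumors and SCD for its lower level in fusion tumors. Of HMGCS1, which had more than 1 promoter, the one with the most CCAAT is shown. The other, chr5:43313132-43313431, held 0 CCAAT. Capitals mark TCACNCCAC and CCAAT, or their reverse complements.
SREBF2, chr22:41832855-41833154, plus strand: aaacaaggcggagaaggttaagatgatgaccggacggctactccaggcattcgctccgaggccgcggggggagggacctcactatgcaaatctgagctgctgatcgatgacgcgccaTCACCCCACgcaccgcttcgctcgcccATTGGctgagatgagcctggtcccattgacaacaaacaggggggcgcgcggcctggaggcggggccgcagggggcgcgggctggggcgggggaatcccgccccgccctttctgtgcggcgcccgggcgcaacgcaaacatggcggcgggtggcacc
HMGCS1, chr5:43313363-43313662, minus strand: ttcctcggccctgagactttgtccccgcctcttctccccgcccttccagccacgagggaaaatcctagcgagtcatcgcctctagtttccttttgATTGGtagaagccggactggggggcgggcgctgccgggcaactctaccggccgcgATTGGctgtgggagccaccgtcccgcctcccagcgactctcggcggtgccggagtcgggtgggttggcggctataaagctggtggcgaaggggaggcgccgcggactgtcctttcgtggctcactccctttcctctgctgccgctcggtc
MSMO1, chr4:165327419-165327718, plus strand: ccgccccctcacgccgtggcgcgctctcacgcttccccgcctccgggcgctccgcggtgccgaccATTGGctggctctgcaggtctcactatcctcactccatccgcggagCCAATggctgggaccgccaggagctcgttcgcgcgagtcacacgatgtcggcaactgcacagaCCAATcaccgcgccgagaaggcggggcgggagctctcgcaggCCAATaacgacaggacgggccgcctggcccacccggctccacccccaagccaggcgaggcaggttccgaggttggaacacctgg
SCD, chr10:100346983-100347282, plus strand: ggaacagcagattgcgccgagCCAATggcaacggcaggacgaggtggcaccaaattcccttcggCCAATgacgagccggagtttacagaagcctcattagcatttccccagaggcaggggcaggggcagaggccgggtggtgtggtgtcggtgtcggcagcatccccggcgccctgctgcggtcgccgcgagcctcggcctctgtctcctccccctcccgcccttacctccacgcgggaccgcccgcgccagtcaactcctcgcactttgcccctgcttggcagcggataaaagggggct

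The 6 arrays had median log2 levels of 6.27 to 6.39, and Pearson's r between arrays across all probe sets was 0.989 to 0.997. Vector tumor 1 stood apart from the other 5 tumors, with a score of 30.1 on the first principal component (45.1% of the variance), against -8.58 to -3.68 in the others. Values without it are given for the role and list medians, and for each gene of the roles and lists whose log2 fold change is printed and then changed sign or moved by over 1.5 times; for genes outside the 28 this was added after the data were seen. The probe sets of TRA2B and DNAH5, the genes joined in the fusion, had log2 fold changes of 0.039 (95% interval -0.18 to 0.26) and -0.0043 (-0.48 to 0.48), and since the labels do not say which parts the construct holds they do not check its presence. Of 9 squamous epithelial markers, 6 had a probe set of their own. The lineage factor SOX2 averaged 8.82 ± 0.11 in fusion tumors and 9.65 ± 0.43 in vector tumors (SD over 3), with a log2 fold change of -0.83 (limma adjusted p = 0.369), and without vector tumor 1 of -1.04 (0.0440). The keratins KRT14 and KRT5 averaged 5.71 and 5.06 in fusion tumors, against 5.70 and 5.19 in vector tumors, and the desmosomal PKP1 5.60 against 5.65, all above the filter level of 4.94, while the desmosomal cadherins DSG3 and DSC3 were below it.

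With all 6 tumors, none of the 26 lipid synthesis genes passed the threshold, an adjusted p below 0.05 by limma with Benjamini-Hochberg adjustment over the 13694 genes, where 10 genes (0.073%) passed. The lowest adjusted p among the 26 was 0.829. At an unadjusted limma p below 0.05 there was 1 gene, FASN, against 5.89% of all genes tested in either direction and 2.73% in the lower one, so the share of 1 in 26 was near that background. The 2 groups did not overlap for FASN and SREBF1, both lower in all 3 fusion tumors, against 11.7% of all genes in either direction and 5.74% in this one. The median log2 fold change, fusion minus vector, of the 26 was -0.067, against 0.0020 over all genes tested, with 10 genes above 0 and 16 below. By role, the median was 0.021 for the 7 enzymes from acetyl-CoA to squalene, -0.055 for the 9 enzymes from squalene to cholesterol, -0.026 for the 4 genes of sterol sensing and transport, and -0.16 for the 6 enzymes of fatty acid and glycerolipid synthesis. Without vector tumor 1 these medians were -0.0038, -0.025, -0.066 and -0.24. Among the 16 cholesterol enzymes, the narrowest 95% interval was that of PMVK, -0.19 to 0.23, and the widest that of HMGCS1, -0.31 to 0.53.

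**Figure D1:**
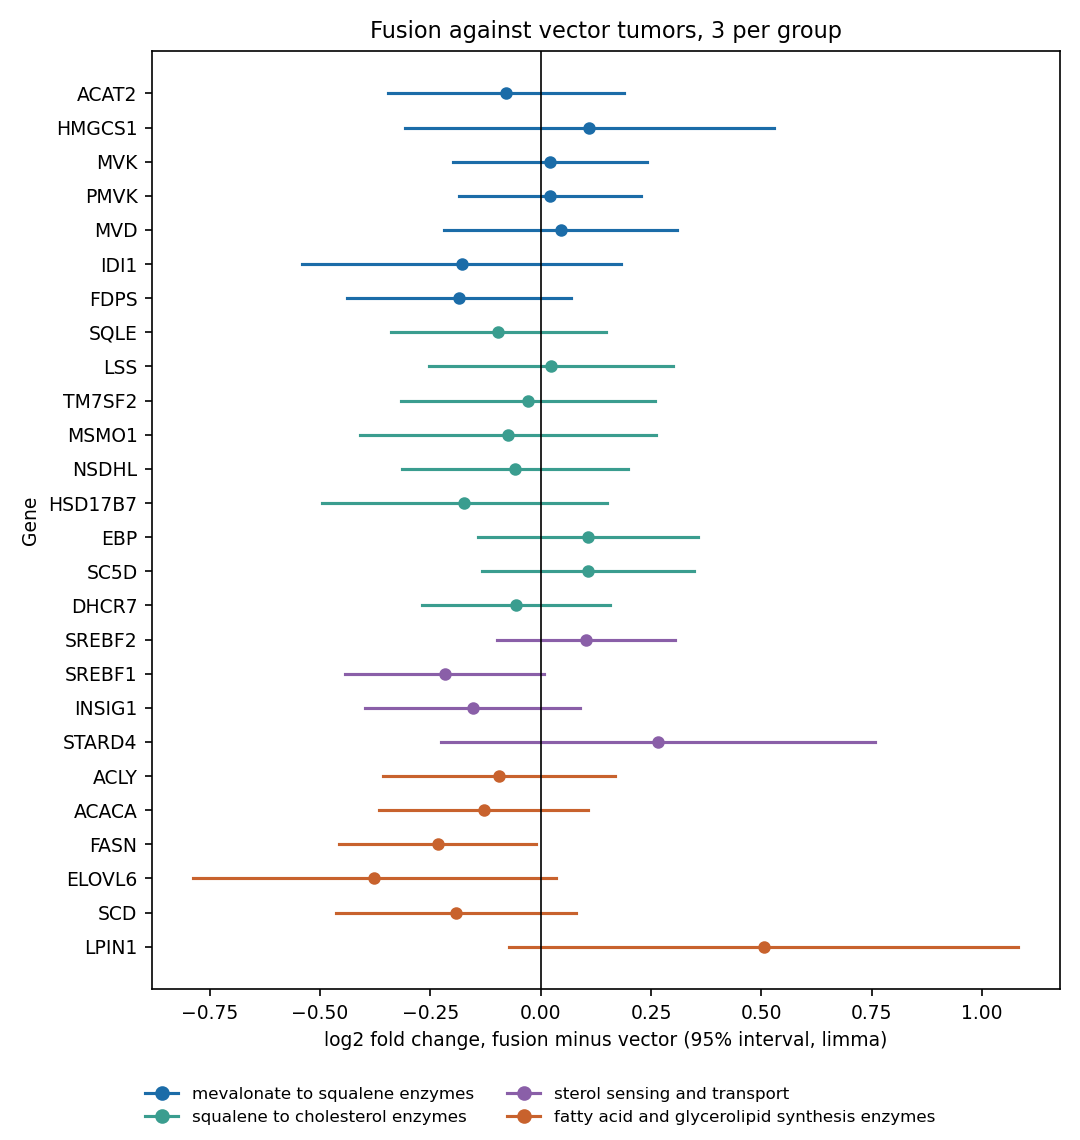
Log2 fold change of each of the 26 genes, fusion minus vector, with the 95% interval from limma (3 tumors per group), coloured by role. The interval of FASN ends just below 0 at -0.010, and those of the other 25 genes include 0.

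The first enzymes of the cholesterol branch had overlapping levels in both groups. HMGCS1, the synthase that makes HMG-CoA, had log2 levels of 10.00, 10.76 and 10.45 in fusion tumors 1 to 3, against 10.23, 10.18 and 10.46 in vector tumors 1 to 3. The groups overlapped fully, with fusion tumor 1 the lowest and fusion tumor 2 the highest of all 6 (log2 fold change 0.11, SE 0.18, limma adjusted p = 0.983). ACAT2, the thiolase that supplies acetoacetyl-CoA, had a log2 fold change of -0.078. The kinases MVK and PMVK and the decarboxylase MVD, which turn mevalonate into isopentenyl diphosphate, were the 3 of these 7 enzymes with log2 fold changes closest to 0, at 0.021, 0.021 and 0.046, with SEs of 0.096, 0.090 and 0.12. IDI1, the isomerase of isopentenyl diphosphate, had log2 levels of 9.75, 10.36 and 10.11 in fusion tumors, against 10.18, 10.15 and 10.43 in vector tumors (log2 fold change -0.18, SE 0.16). Fusion tumor 1 was again the lowest of the 6. FDPS, the farnesyl diphosphate synthase, had a log2 fold change of -0.18 (SE 0.11), and its highest value, 10.75, was that of vector tumor 1; without that tumor its log2 fold change was -0.086. Also without it, ACAT2 had -0.17, MVK 0.0051, PMVK 0.012 and MVD -0.0038.

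The enzymes that turn squalene into cholesterol had 3 log2 fold changes above 0 and 6 below. SQLE, the squalene epoxidase and a rate-controlling step, had log2 levels of 10.30, 10.62 and 10.57 in fusion tumors, against 10.61, 10.60 and 10.56 in vector tumors. The vector tumors lay within 0.047 of each other, and only fusion tumor 1 was clearly below them (log2 fold change -0.096, SE 0.11, limma adjusted p = 0.968). MSMO1, the methylsterol oxidase, had log2 levels of 10.22, 10.77 and 10.50 in fusion tumors, against 10.64, 10.42 and 10.66 in vector tumors, and HSD17B7, a sterol ketoreductase, had 5.43, 5.99 and 5.77 against 5.92, 5.94 and 5.84. In both, fusion tumor 1 was the lowest and fusion tumor 2 the highest of the 6. LSS, the cyclase that makes lanosterol, and TM7SF2, a sterol reductase, had log2 fold changes of 0.023 and -0.029. NSDHL, a sterol dehydrogenase, the isomerase EBP, the desaturase SC5D and DHCR7, the reductase of the last step, had log2 fold changes of -0.059, 0.11, 0.11 and -0.055. Without vector tumor 1, LSS had -0.094, NSDHL 0.033, DHCR7 0.0085 and MSMO1 -0.040. With all 6 tumors, the groups overlapped for each of the 9.

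Several cholesterol enzymes varied more among the fusion tumors than between the groups. In 8 of its 16 enzymes (ACAT2, HMGCS1, IDI1, FDPS, SQLE, MSMO1, HSD17B7 and SC5D) fusion tumor 1 was the lowest and fusion tumor 2 the highest of the 3 fusion tumors, an order seen in 20.5% of all genes tested. The same order held for INSIG1, SREBF1 and STARD4, so for 11 of the 26 genes (42.3%), and for 0 of the 6 fatty acid and glycerolipid enzymes. These counts depend on the probe sets used. In the other probe sets, the order held for HMGCS1, IDI1, FDPS and INSIG1. It failed in some of those of ACAT2, SQLE, MSMO1, SC5D, SREBF1 and STARD4. For example, 1 SQLE probe set read 8.76, 8.70 and 8.49 in fusion tumors 1 to 3, and 1 of SREBF1 read 6.58, 5.98 and 6.07. The gap between fusion tumors 2 and 1 was 0.76 for HMGCS1, 0.61 for IDI1, 0.56 for HSD17B7 and 0.55 for MSMO1 on the log2 scale, larger than the range over the 3 vector tumors, which was 0.28, 0.28, 0.10 and 0.24. For MVK, MVD, FDPS, LSS, NSDHL and DHCR7 the range was larger over the vector tumors. The SD was larger in vector tumors for 15 of the 26 genes (57.7%, against 61.4% of all genes tested). The order was noticed in these values and is given as a description, with no test. Over all 26 genes, the median deviation from a gene's own mean was -0.089, 0.030 and -0.044 in fusion tumors 1 to 3, against -0.027, -0.0078 and 0.12 in vector tumors 1 to 3. Vector tumor 3 held the highest value of the 6 tumors for 10 of the 26 genes (38.5%, against 15.4% of all genes tested), and fusion tumor 1 the lowest for 10 (38.5%, against 17.0%).

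**Figure D2:**
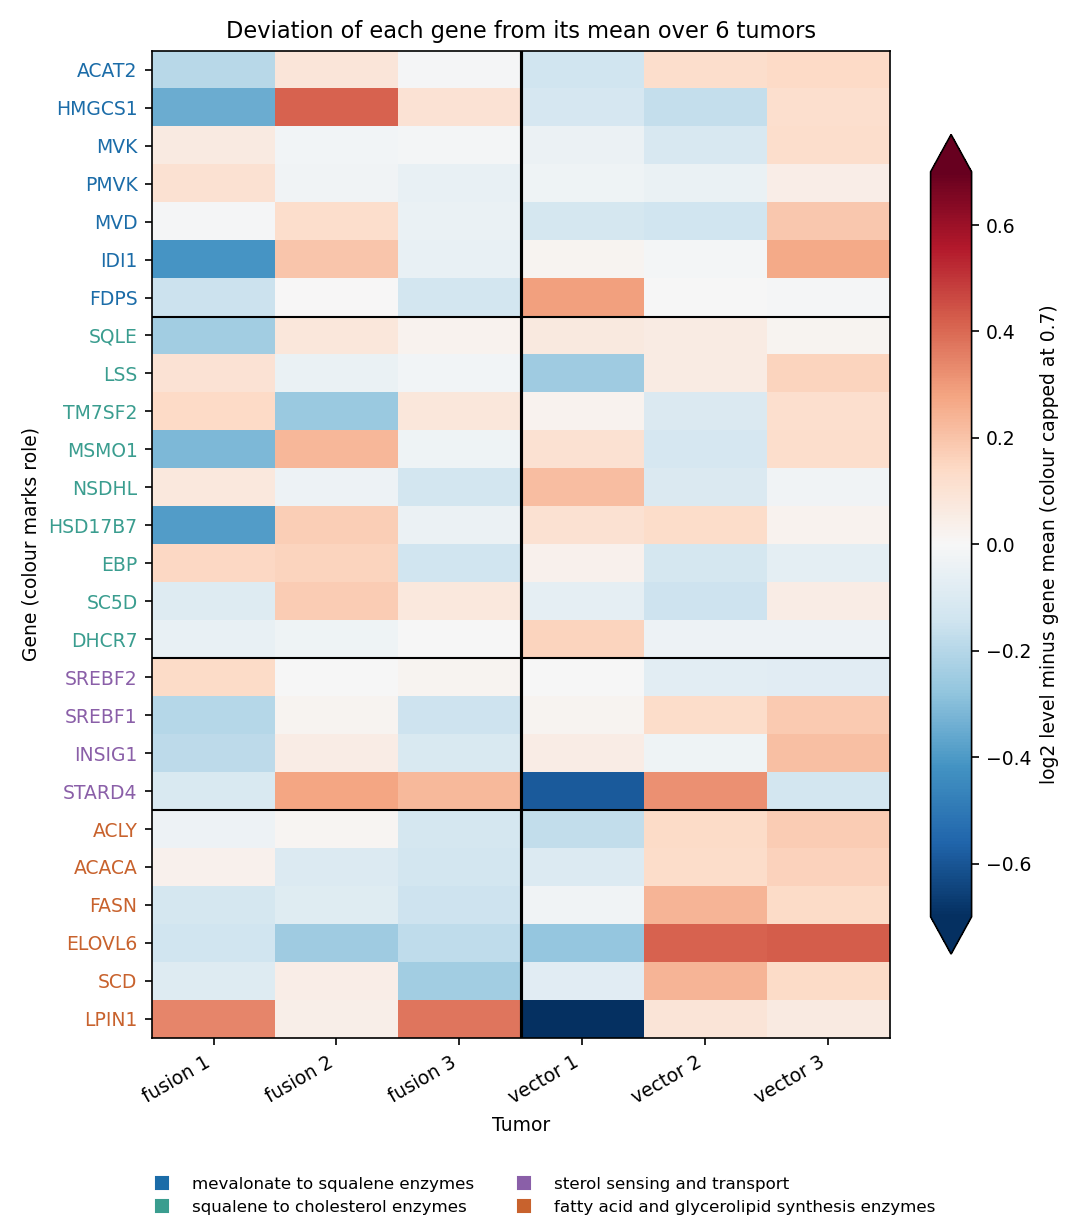
Deviation of each gene's log2 level from its own mean over the 6 tumors, with fusion tumors on the left and vector tumors on the right; genes run down the page by role. Fusion tumor 1 is low and fusion tumor 2 high for HMGCS1, IDI1, MSMO1 and HSD17B7, and vector tumor 1 is low for LPIN1 and STARD4 and below the other vector tumors for all 6 fatty acid and glycerolipid enzymes.

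Among the genes that sense and move sterol, SREBF1 had a log2 fold change below 0 and SREBF2 one above 0, and neither passed the test. SREBF1 had log2 levels of 9.23, 9.44 and 9.28 in fusion tumors, against 9.44, 9.55 and 9.61 in vector tumors. Every fusion value was below every vector value, but fusion tumor 2 and vector tumor 1 all but met at 9.44 (log2 fold change -0.22, SE 0.099, 95% interval -0.44 to 0.0076, limma adjusted p = 0.866; exact permutation p = 0.1, the smallest that 3 against 3 tumors allow). The other 2 SREBF1 probe sets had overlapping groups and log2 fold changes of -0.13 and -0.015. SREBF2 had log2 levels of 8.47, 8.34 and 8.36 in fusion tumors, against 8.34, 8.26 and 8.26 in vector tumors (log2 fold change 0.10, SE 0.088, limma adjusted p = 0.963). Its 3 probe sets had log2 fold changes of 0.032 to 0.13, and vector tumor 1 overlapped the fusion tumors. INSIG1, itself an SREBP target, had log2 levels of 10.31, 10.54 and 10.39 in fusion tumors, against 10.54, 10.46 and 10.70 in vector tumors, with a log2 fold change of -0.15 (SE 0.11). STARD4, a carrier of cholesterol between membranes, had log2 levels of 6.84, 7.22 and 7.17 in fusion tumors, against 6.36, 7.26 and 6.82 in vector tumors. Its log2 fold change of 0.26 (SE 0.21) came to 0.036 without vector tumor 1, the lowest of the 6.

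Of the 6 fatty acid and glycerolipid enzymes, 5 had a log2 fold change below 0 in the probe set used, and none passed the test with all 6 tumors. For 1 of these 5, ACACA, the 2 other probe sets were above 0. ACLY, which makes cytosolic acetyl-CoA from citrate, had log2 levels of 12.15, 12.20 and 12.06 in fusion tumors, against 12.01, 12.32 and 12.36 in vector tumors (log2 fold change -0.095, SE 0.11). ACACA, the carboxylase that makes malonyl-CoA, had 10.75, 10.62 and 10.59 against 10.62, 10.85 and 10.88 (log2 fold change -0.13, SE 0.10). In both, vector tumors 2 and 3 were the highest of the 6 and vector tumor 1 lay among or below the fusion tumors. FASN, the synthase that builds palmitate, had log2 levels of 9.47, 9.51 and 9.45 in fusion tumors, against 9.57, 9.83 and 9.73 in vector tumors. The fusion tumors were tightly grouped, and all below the vector tumors, by a mean of 1.18-fold (9.47 ± 0.028 and 9.71 ± 0.13, SD, n = 3 each; log2 fold change -0.23, SE 0.098, 95% interval -0.46 to -0.010, limma p = 0.0424 unadjusted and adjusted p = 0.829; exact permutation p = 0.1).

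ELOVL6, which lengthens palmitate to stearate, had the lowest log2 fold change of the 26 genes, -0.38 (SE 0.18, limma adjusted p = 0.896). Its log2 levels were 8.29, 8.18 and 8.26 in fusion tumors, against 8.16, 8.85 and 8.85 in vector tumors. Vector tumors 2 and 3 were far above the fusion tumors, while vector tumor 1 was the lowest of the 6. SCD, the desaturase that makes oleate, had log2 levels of 13.33, 13.47 and 13.18 in fusion tumors, against 13.34, 13.66 and 13.55 in vector tumors (log2 fold change -0.19, SE 0.12, limma adjusted p = 0.956). LPIN1, a phosphatidate phosphatase that feeds glycerolipid synthesis, went the other way, with log2 levels of 9.82, 9.52 and 9.86 in fusion tumors, against 8.57, 9.57 and 9.55 in vector tumors. It had the highest log2 fold change of the 26 genes, 0.51 (SE 0.25, 95% interval -0.071 to 1.08, limma adjusted p = 0.916), and vector tumor 1 differed from the next lowest vector tumor by -0.98 on the log2 scale.

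**Figure D3:**
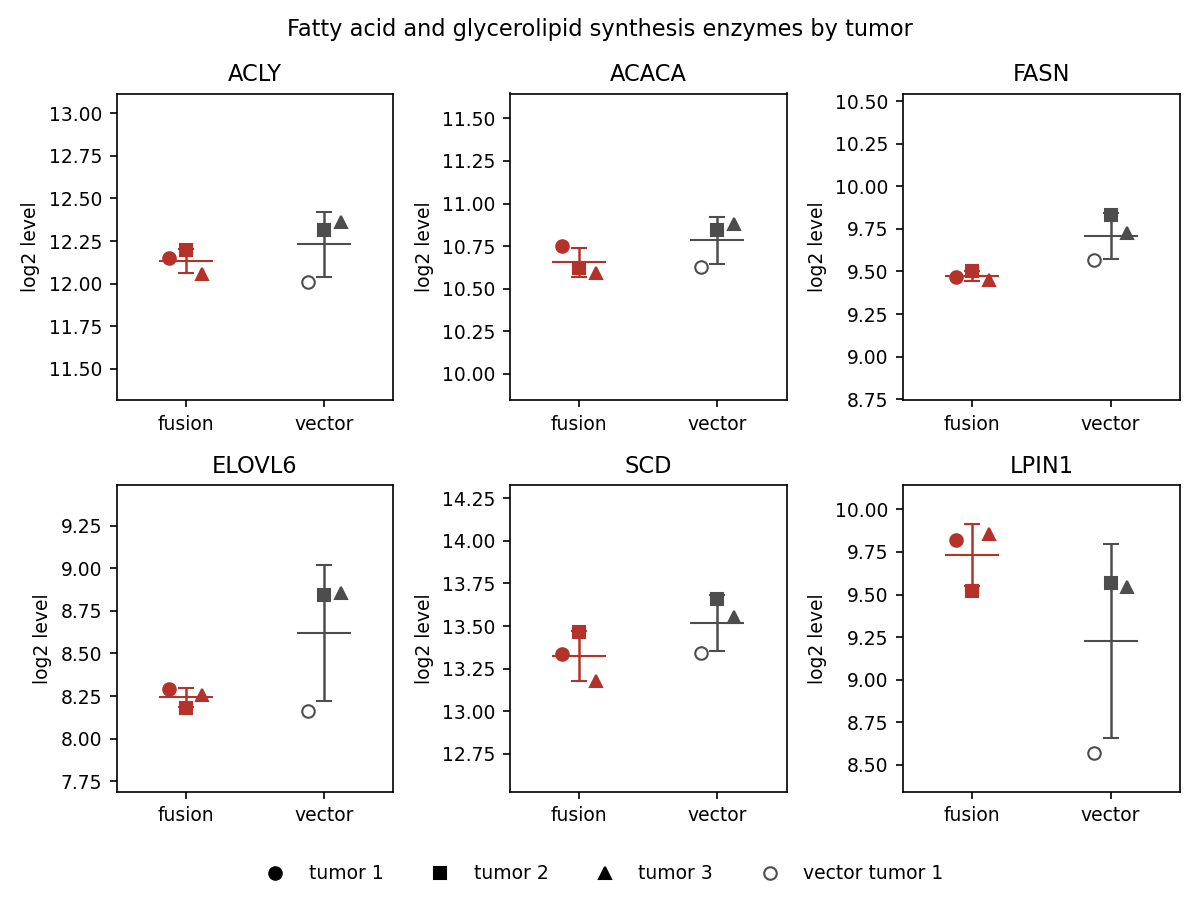
Log2 level of each fatty acid and glycerolipid enzyme in every tumor, fusion on the left and vector on the right; bars are group means with SD (n = 3 each), the open circle is vector tumor 1, and each panel spans the same log2 range. In all 6 panels the open circle is the lowest of the vector tumors, and for ACLY, ELOVL6 and LPIN1 the lowest of all 6 tumors.

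How far the fatty acid enzymes differed depended on vector tumor 1. It held the lowest value of the 3 vector tumors for all 6 of these enzymes, against 41.1% of all genes tested. Without it, ELOVL6 fell by 0.61 on the log2 scale in fusion tumors (8.24 in 3 fusion tumors and 8.85 in 2 vector tumors, SE 0.085, limma adjusted p = 0.0440), and was the 1 gene of the 26 to pass, where 0.27% of all genes passed. FASN, SCD, ACLY and ACACA then had log2 fold changes of -0.31, -0.28, -0.20 and -0.21, with limma adjusted p = 0.290, 0.488, 0.539 and 0.540, and SREBF1 had -0.26 (0.455). These 6 genes, ELOVL6 included, had an unadjusted p below 0.05, against 9.19% of all genes, and their groups did not overlap, nor did those of ACAT2 (lower) and SREBF2 (higher), against 25.8% of all genes. ACACA is counted here by its brightest probe set, and its 2 other probe sets were above 0 with all 6 tumors. The log2 fold change of LPIN1 came to 0.18 (limma adjusted p = 0.746). With limma's array weights, which gave vector tumor 1 the lowest weight of the 6 (0.232), ELOVL6 was again the 1 gene past the threshold (log2 fold change -0.56, limma adjusted p = 0.0373), where 1.02% of all genes passed. FASN held its unadjusted p below 0.05 without vector tumor 1, and lost it when any other tumor was left out. Without vector tumor 1, the median of the 6 fatty acid and glycerolipid enzymes was -0.24, while that of the 16 cholesterol enzymes was -0.014. Leaving out vector tumor 1 was chosen because it stood apart over all genes, but it also widens the gap by taking away the lowest vector value, and 2 vector tumors remain.

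**Figure D4:**
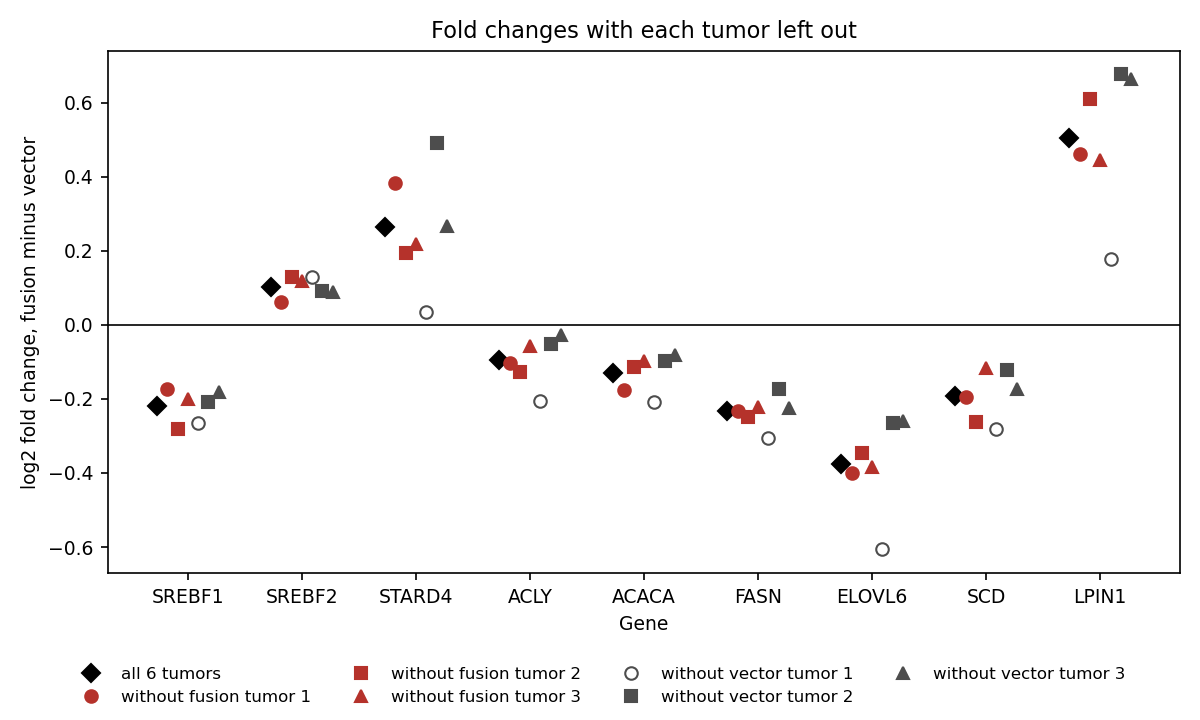
Log2 fold change, fusion minus vector, of 9 genes with all 6 tumors (diamonds) and with each tumor left out in turn. Among the open circles, without vector tumor 1, that of ELOVL6 lies farthest below 0 (-0.61). For LPIN1 (0.18) and STARD4 (0.036) the open circle is the marker of that gene closest to 0.

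Other probe sets of the same genes gave a check that does not depend on the choice of the brightest. The 26 genes had 70 probe sets, 68 of them above the filter level. Of 21 genes with more than 1 probe set above that level, 18 had the same sign in all of these and 3 (ACACA, LSS and SQLE) had both signs. The other 2 ELOVL6 probe sets both had a log2 fold change near -0.54 (-0.54 and -0.53) with groups that did not overlap. The brighter of these read 7.26, 7.34 and 7.56 in fusion tumors, against 7.66, 8.11 and 7.997 in vector tumors, so there vector tumor 1 lay above the fusion tumors. The dimmer read 4.77, 4.90 and 4.88 in fusion tumors, against 5.07, 5.61 and 5.47 in vector tumors. Its fusion values were below the filter level of 4.94, which it passed only through the vector tumors, so it adds little as a check. Of the other 3 SCD probe sets, 2 had groups that did not overlap, lower in fusion tumors, and the 3 had log2 fold changes of -0.37 to -0.33. Both other LPIN1 probe sets were higher in all fusion tumors, with log2 fold changes of 0.59 and 0.41. These sizes rest in part on vector tumor 1, which read 5.82 and 8.39. Vector tumors 2 and 3 read 6.90 and 6.98 in the first probe set, and 9.01 and 9.03 in the second. In the first, the lowest fusion value was 6.997 and the highest vector value 6.984. ACACA differed between its probe sets, at -0.13, 0.050 and 0.23, so no direction can be given for it. With the mean of each gene's probe sets, the groups did not overlap for ELOVL6, FASN and SREBF1 (lower) and for LPIN1 and SREBF2 (higher), against 12.3% of all genes. Still 0 of the 26 passed by limma, with 3 (ELOVL6, FASN and SCD) at an unadjusted p below 0.05, against 6.15% of all genes. The mean for ELOVL6 takes in the dimmer probe set that passed the filter only through the vector tumors, so its part in these counts adds no support.

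**Figure D5:**
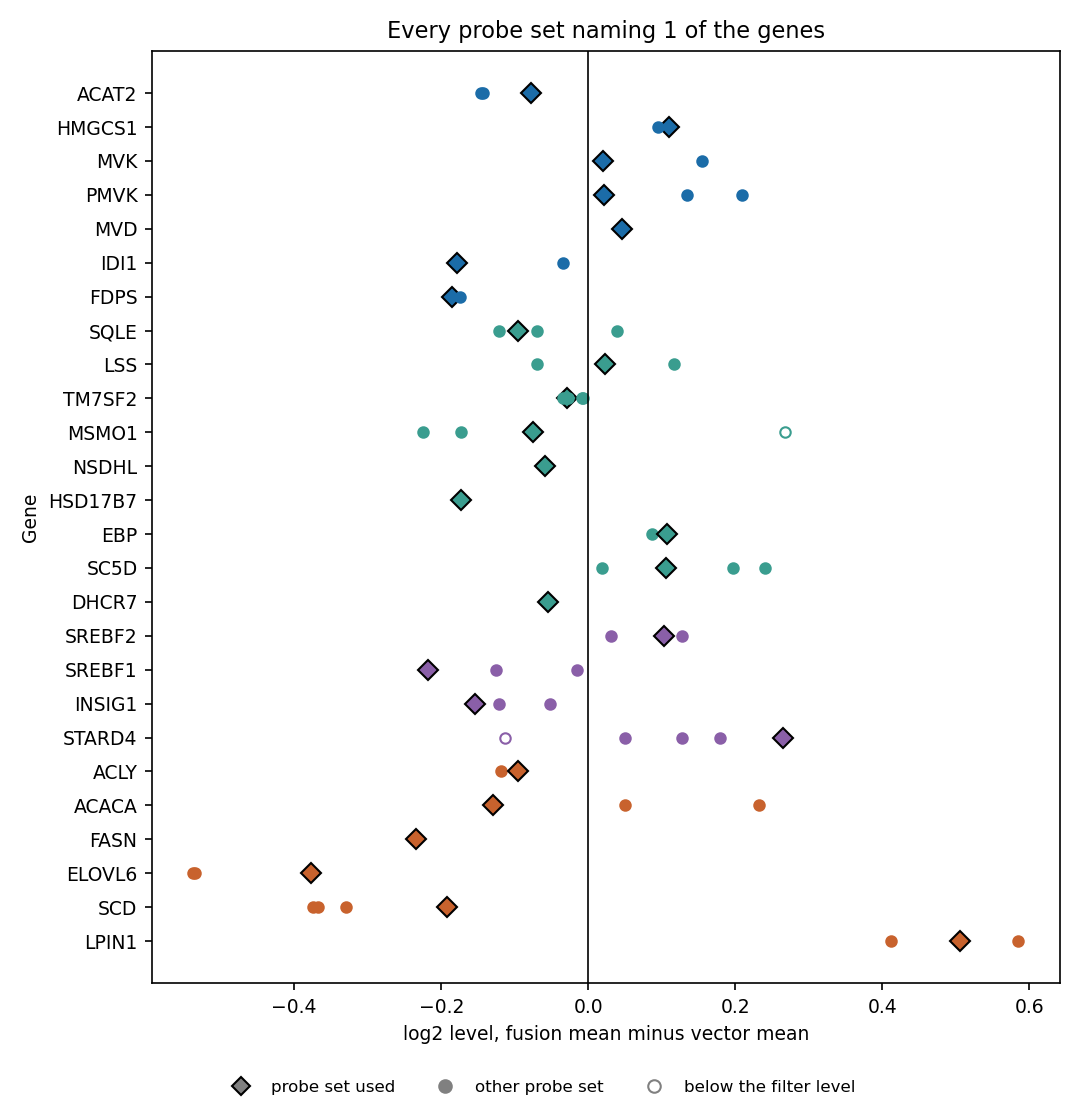
Difference of group means, fusion minus vector, on the log2 scale for each of the 70 probe sets of the 26 genes, coloured by role; diamonds are the probe sets used, and open circles lie below the filter level. The ELOVL6 and SCD probe sets all lie left of 0, those of LPIN1 right of it, and those of ACACA on both sides.

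Other genes of the pathway, from lists chosen with earlier results of these data known, gave 0 calls by limma. Among those tested in the 4 lists of sterol handling and fatty acid synthesis, MBTPS1 alone had an unadjusted p below 0.05, against 5.89% of all genes, and without vector tumor 1 it was INSIG2 alone (log2 fold change -0.33, against -0.17 with all tumors), where the share was 9.19%. The list of SREBP processing and sterol feedback had 7 genes tested of 9, with 6 below 0 and a median log2 fold change of -0.15 (-0.18 without vector tumor 1), against 0.0020 over all genes. The escort SCAP had log2 levels of 9.46, 9.53 and 9.42 in fusion tumors, against 9.73, 9.55 and 9.57 in vector tumors. The SREBP protease MBTPS1 had 8.69, 8.79 and 8.79 against 9.15, 9.02 and 8.84, and the second protease MBTPS2 had 9.43, 9.60 and 9.57 against 9.69, 9.81 and 9.64. These were the 3 of 7 whose groups did not overlap, all lower, against 5.74% of all genes, with log2 fold changes of -0.15, -0.25 and -0.18 and limma adjusted p = 0.957, 0.829 and 0.934. SCAP had -0.092 without vector tumor 1. Of 3 further sterol synthesis genes tested, GGPS1, the geranylgeranyl diphosphate synthase, had a log2 fold change of -0.17 with groups that did not overlap, ERG28, a scaffold of sterol enzymes, had -0.14 and IDI2 had -0.0047. Without vector tumor 1, ERG28 had -0.019 and IDI2 -0.056, and the median of these 3 was -0.056, against -0.14 with all tumors. Of 9 genes of cholesterol uptake, efflux and storage tested (median -0.048, and -0.092 without vector tumor 1; 4 above 0), the lysosomal cholesterol carrier NPC2 had -0.19, the efflux pump ABCA1 -0.12 and the cholesterol acyltransferase SOAT1 0.14.

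Beyond the 6 enzymes of fatty acid and glycerolipid synthesis, 18 further genes of that branch were tested. Of these, 14 were above 0, with a median log2 fold change of 0.051 (0.038 without vector tumor 1). GPAM, the acyltransferase that starts glycerolipid synthesis, had log2 levels of 7.92, 7.94 and 7.99 in fusion tumors, against 7.23, 7.93 and 7.80 in vector tumors (log2 fold change 0.30, SE 0.17), with vector tumor 1 low as it was for LPIN1. Without that tumor GPAM had a log2 fold change of 0.088. ACSL5, which activates fatty acids, and MLXIPL, the carbohydrate-responsive factor ChREBP, had log2 fold changes of 0.21 and 0.14 with groups that did not overlap, the 2 of 18 higher in all fusion tumors, against 5.94% of all genes. FADS2, the desaturase, and SCD5, the second stearoyl desaturase, had -0.077 and -0.15, and SCD5 had -0.045 without vector tumor 1.

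Adipocytes are rich in the fatty acid enzymes, so their markers were read beside them. In bulk tumor RNA fewer cells of a type and less RNA per cell cannot be told apart. Of 12 adipocyte markers, 10 were tested, 7 of them below 0 (median log2 fold change -0.12, and -0.098 without vector tumor 1). The summed linear level of all 12, those below the filter included, was 1289 to 1373 in fusion tumors, against 1379 to 1454 in vector tumors. CFD was the brightest of the 12, at 9.31 in fusion and 9.30 in vector tumors. The regulator PPARG had a log2 fold change of -0.38, and PLIN1 and CIDEC, which coat lipid droplets, had -0.33 and -0.26 (limma adjusted p = 0.658, 0.815 and 0.829). These 3 of 10 had an unadjusted p below 0.05, all lower, against 2.73% of all genes in this direction. PPARG averaged 4.90 in fusion tumors, below the filter level of 4.94, and 5.28 in vector tumors. It passed the filter only through its vector values, so it adds no support to the count. Without vector tumor 1, CIDEC had -0.17, and 2 of the 10, PLIN1 and PPARG, had an unadjusted p below 0.05, against 9.19% in either direction. PPARG adds no support to this count either. With all tumors, CFD, LPL and LIPE were above 0, at 0.0040, 0.040 and 0.080, and ADIPOQ had -0.091. Without vector tumor 1, CFD, LPL, LIPE and ADIPOQ had -0.057, -0.098, 0.045 and -0.044. The fatty acid carrier FABP4 and the hormone LEP were below the filter level, at 3.94 and 4.81 in fusion and 4.07 and 5.06 in vector tumors as group means. The part of adipocytes in the lower fatty acid enzymes was not tested. The probe sets are human, and how far mouse RNA added to them was not tested. Fibroblast markers (7 tested, 6 above 0, median 0.24, and 0.25 without vector tumor 1) and macrophage and leukocyte markers (4 tested, 2 above 0, median 0.067, and 0.075 without it) held 0 calls by limma, with 5 and 1 genes at an unadjusted p below 0.05, against 5.89% of all genes. Of the 5 fibroblast genes, the protease FAP and the collagens and surface antigen COL1A1, COL1A2 and THY1 had log2 fold changes of 0.91, 0.65, 0.24 and 0.36, and the fibrillin FBN1 had -0.50. Of the 4 macrophage and leukocyte genes, CD68 had 0.80, CSF1R 0.17, AIF1 -0.039 and TYROBP -0.13, with groups that did not overlap for all but AIF1, against 11.7% of all genes. Without vector tumor 1, AIF1 had -0.013. The leukocyte antigen PTPRC and the monocyte receptor CD14 were below the filter level.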

How the data were processed

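The authors deposited log2 probe set values for 6 arrays in a single table. That they are log2 was judged from their range, and no source used here states the background correction, normalization or summarisation. Of 49293 probe sets, 44988 named 1 gene, 1832 several and 2473 none, by the platform annotation; the gene identifiers of 44961 were in RefSeq's table. The brightest probe set of each gene was used, and genes dimmer on average than the 30th percentile of probe sets (4.94) were not tested. Groups and replicate numbers came from sample titles. Fusion was compared with vector by limma 3.58.1 (R 4.3.3; lmFit and eBayes, two-sided, Benjamini-Hochberg over 13694 genes), tested on simulated data. Exact permutation tests are two-sided. Values in every tumor are given for genes with an unadjusted p below 0.05 or groups that do not overlap and for 7 set genes (HMGCS1, SQLE, INSIG1, SREBF1, SREBF2, FASN and SCD), with some others added after their values were seen; up to 3 genes with the smallest p are named per other list, with others likewise added. The genes and lists were chosen with earlier results of these data known. The number of arrays limits precision. Alternatives covered filter, probe set, normalization, variance model, array weights, replicate number and each tumor left out. Software also included the package data.table (1.17.8) for input and, for plots, Python 3.11.15 with matplotlib 3.10.9.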

Additional observations from a re-analysis of the deposited data

How the results depend on the processing

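The count of the 26 genes past the threshold stayed at 0 in every alternative except array weights (1, ELOVL6, limma adjusted p = 0.0373; vector tumor 1 had the lowest weight, 0.232, and 1.02% of all genes passed) and leaving out vector tumor 1; with each tumor left out it was 0 to 1. Genes whose groups did not overlap numbered 2 with all tumors (11.7% of all genes) and 5 with the mean of probe sets (12.3%). They numbered 3 to 9 with a tumor left out, where fewer tumors also leave 18.5% to 25.8% of all genes without overlap. Genes at an unadjusted limma p below 0.05 numbered 1 with all tumors, against 5.89% of all genes. They numbered 3 with the mean of probe sets (6.15% of all genes), 3 with quantile normalization (6.03%) and 3 with median centring (5.74%). With array weights they numbered 6 (13.5%), and with a tumor left out 0 to 6 (3.93% to 9.19%). Both counts with the mean of probe sets include ELOVL6, whose mean takes in its dim probe set. Over all genes, 10 passed the threshold with all tumors, 1 with the 50th percentile filter, 16 with the mean of probe sets, 6 with the most variable probe set, 140 with array weights and 0 to 37 with a tumor left out. The median log2 fold change of the 26 genes stayed below 0, from -0.096 with median centring to -0.022 without fusion tumor 1. Of the 26 genes, 15 kept the sign of their log2 fold change in all alternatives run and 11 (among them HMGCS1, SQLE and ACACA) did not. Same-numbered tumors deviated together with r = 0.097, 0.17 and 0.051, and each of the 6 correlated best with its own number. These 6 matches rest on the same 3 low correlations, so they are not separate agreements. They come from the data and not the design, and whether the numbers mark pairs was not tested. The replicate block changed none of the counts over the 26 genes (0 past the threshold, 1 at an unadjusted p below 0.05), and 8 of all genes passed with it. HSD17B7 was not tested with the 50th percentile filter. Dim probe sets have an unknown background, which can understate a fold.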

Other observations

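Genes of fatty acid oxidation, the pathway that breaks fatty acids down in mitochondria, also held 0 calls by limma. Of 11 genes 9 were tested, with 6 below 0 and a median log2 fold change of -0.046 (-0.085 without vector tumor 1). Only 1, ACAA2, had an unadjusted limma p below 0.05, against 5.89% of all genes in either direction and 2.73% in the lower one. ACAA2, the mitochondrial thiolase, had log2 levels of 9.32, 9.11 and 9.30 in fusion tumors, against 9.59, 9.48 and 9.49 in vector tumors, with every fusion value below every vector value (log2 fold change -0.28, SE 0.097, limma adjusted p = 0.692). HADHB, a subunit of the trifunctional protein, had -0.13, also with groups that did not overlap. ACAA2 and HADHB were the 2 of 9 without overlap, both lower, against 5.74% of all genes. The flavoprotein dehydrogenase ETFDH had -0.14 (-0.085 without vector tumor 1). CPT1A, the carrier step into mitochondria, had log2 levels of 10.66, 10.64 and 10.77 in fusion tumors, against 10.23, 10.64 and 10.77 in vector tumors, and vector tumor 1 was again the lowest of the 6; the log2 fold change was 0.14, and -0.015 without it.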
